A study of Mus musculus with 6 samples.

Results

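The collagen genes were taken as all genes of the count table whose mouse symbol has the form Col, a number, a, a number. This rule found 44 of the 56884 genes in the files, one for each collagen chain it names. The counts came from RNA of 6 whole ectopic lesions, 3 per genotype, in a mouse model of endometriosis, a disease in which tissue of the uterine lining grows outside the uterus. Control (WT) lesions grew from uterine tissue of Dnmt3a f/f female donors, which carry a floxed Dnmt3a gene that is not recombined. Knockout (KO) lesions grew from Dnmt3a f/f:PR-Cre/+ female donors, in which Cre recombinase, under control of the progesterone receptor gene, removes the floxed part of Dnmt3a, the gene of a DNA methyltransferase. The donors were adults given 17β-estradiol, and the recipients of both groups were syngeneic C57BL/6J females that carried an estradiol pellet. The labels give 4 weeks as the time and an injection of tissue fragments into the peritoneal cavity, whereas the methods of the study describe a fragment sutured to the mesentery and an earlier day of collection. Cells that entered a lesion from the recipient, and donor cells without progesterone receptor, keep an intact Dnmt3a, so a KO lesion can hold both recombined and unrecombined cells. By the study's methods each group drew on 3 donors, so the spread between replicates includes that between animals.

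Collagens are built from chains wound into a triple helix, which is made in the endoplasmic reticulum, trimmed outside the cell and assembled there with other molecules. Fibrillar collagens form the fibrils that give tissue its tensile strength, type IV collagens form the sheet-like network of basement membranes under epithelium and around vessels, type VI collagens form beaded filaments close to cells, and FACIT collagens (fibril-associated collagens with interrupted triple helices) sit on the surface of fibrils. In endometrium and in endometriotic lesions most fibrillar collagen comes from stromal fibroblasts, and fibrosis with collagen deposition is a known feature of endometriosis.

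The libraries held 45370342 to 57239184 counts, and 18177 genes passed the filter on low counts. Dnmt3a (chromosome 12, 3806007 to 3914443) was at 43.9 to 52.7 CPM (counts scaled to library size with TMM factors) in WT and at 30.3 to 36.2 CPM in KO lesions, a log2 fold change of -0.57 (SE 0.14, adjusted p = 0.321 by edgeR's quasi-likelihood test). Some libraries stood apart. The summed level of 10 skeletal muscle markers was 30956 CPM in WT replicate 1 and 32812 CPM in WT replicate 3, but 5.54 CPM in WT replicate 2 and 8.10 to 16.2 CPM in KO lesions. Endometrial epithelium markers summed to 1658 to 2464 CPM in WT against 1540 to 2848 CPM in KO. Of this list, Foxa2 was scarce, at 0.128, 0.270 and 1.45 CPM in WT against 0.316, 2.62 and 0 CPM in KO. Every other gene of the list was at 14.8 CPM or more in all lesions. The 10 fibroblast and stroma markers, the list closest to the source of fibrillar collagen, summed to 4232 to 5108 CPM in the WT lesions and to 2642, 2334 and 5318 CPM in KO replicates 1, 2 and 3. For this list KO replicate 3 was thus the highest and KO replicate 2 the lowest of all lesions, and its part in the collagen values was not tested. In bulk tissue fewer cells of a type and less RNA per cell cannot be told apart.

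The KO lesions did not share 1 collagen pattern. In KO replicates 1 and 2 the abundant fibrillar genes Col1a1, Col1a2 and Col3a1 and the FACIT genes Col12a1 and Col14a1 lay below every WT lesion, whereas in KO replicate 3 they lay within or above the WT range. Col1a1, for instance, was at 2247 to 2784 CPM in WT lesions and at 1316, 720 and 3446 CPM in KO replicates 1, 2 and 3. The type VI genes Col6a1, Col6a2 and Col6a3, whose chains form filaments close to cells, overlapped between the groups. Fibrillar genes held a mean of 68.8% of the collagen counts in WT and 54.3% in KO, and type VI genes 16.8% and 31.5%. Col11a2 and Col22a1, both scarce, were the members for which all KO lesions lay below all WT lesions.

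Of the 44 collagen genes, 40 passed the filter and were tested. None of the KO against WT differences in these 40 genes had an adjusted p under 0.05. The lowest was 0.328, where 0.0055% of all genes passed. By DESeq2 and limma voom 0 members passed as well, where 3.6% and 0.0605% of all genes did. By the looser threshold that the study used, an unadjusted p under 0.05 with a log2 fold change above 1 or below -1, Col22a1 was lower in KO lesions and 0 collagen genes were higher. That is 2.5% of the members, where 8.96% of all genes passed (5.85% lower and 3.1% higher). At an unadjusted p under 0.05 alone, 1 member passed by edgeR (14.7% of all genes), 7 by DESeq2 (12.6%) and 20 by limma voom with quality weights (28.7%). With the limit on fold change, DESeq2 called 6 members lower and 1 higher, where 6.13% of all genes were lower and 2.81% higher. The DESeq2 fit used a looser filter and covered 43 members. Its calls of Col19a1 (lower) and Col9a2 (higher) lie outside the 40. They rest mostly on 44 counts in WT replicate 1 and 66 counts in KO replicate 2. In the edgeR fit 27 members had a negative and 13 a positive log2 fold change, with a median of -0.36, beside a median of 0.01 over all genes tested. All KO lesions lay below all WT lesions for 2 members, Col11a2 and Col22a1, and all KO lesions lay above all WT lesions for 0, together 5.0% of the members. Over all genes, 19.4% had groups that did not overlap (8.74% lower and 10.7% higher).

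The spread among KO lesions was wide. The ratio of the highest to the lowest lesion, taken per gene, had a median over the members of 3.72 in KO and 1.93 in WT. It was larger in KO than in WT for 26 of the 40 members, beside 50.1% of all genes. KO replicate 2 held the lowest value of all 6 lesions for 22 members, and KO replicate 3 held the highest for 18. Over all genes tested, KO replicate 2 was lowest for 20.2% and KO replicate 3 highest for 12.8%. KO replicates 1 and 2 both lay below every WT lesion for 22 of 40 members, where 22.4% of all genes showed this order. KO replicate 3 lay above every WT lesion for 18 members, where 24.9% of all genes did, and 11 members showed both. This order of the lesions was noticed after the values were seen and is given as a description without a test.

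**Figure D1:**
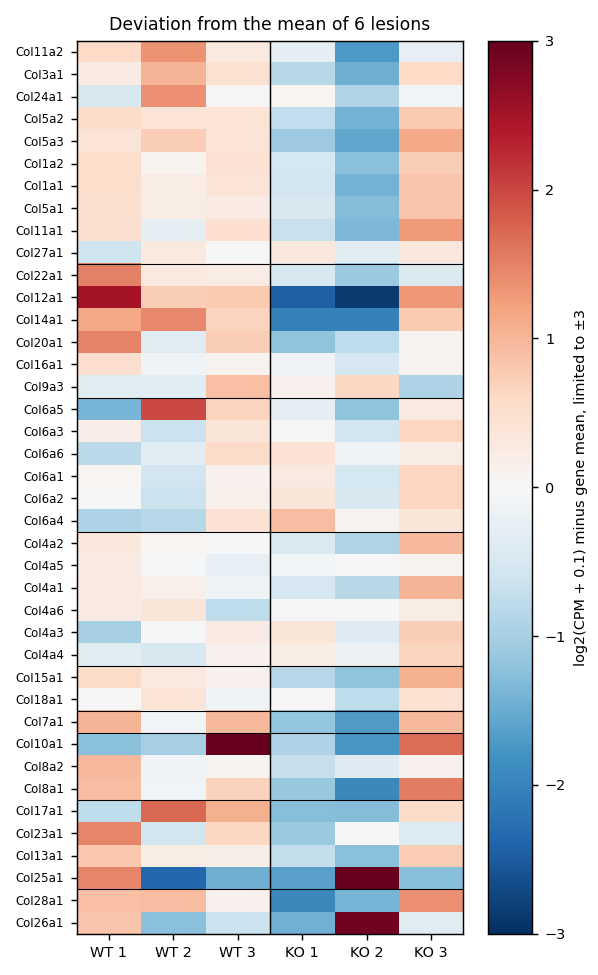
Deviation of each tested collagen gene in each lesion, as log2(CPM + 0.1) minus the gene's mean over the 6 lesions, with 1 row per gene grouped by class, 1 column per lesion, red above and blue below the mean and colours limited at 3 either way. KO replicates 1 and 2 lay below every WT lesion for 22 of the 40 genes, 13 of them fibrillar or FACIT genes, and KO replicate 3 lay above every WT lesion for 18.

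Collagen genes took 1.67%, 1.63% and 1.62% of all counts in WT replicates 1, 2 and 3 and 1.07%, 0.697% and 2.33% in KO replicates 1, 2 and 3. The mean was 1.64% ± 0.0240 (SD, n = 3) in WT and 1.37% ± 0.857 (SD, n = 3) in KO. The WT lesions thus lay within a narrow range, KO replicates 1 and 2 lay under it and KO replicate 3 above it, and the groups overlapped. Without the 181 most abundant other genes in the total, among them those of skeletal muscle, the shares were 2.30% ± 0.103 (SD, n = 3) in WT and 1.91% ± 1.16 (SD, n = 3) in KO.

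The make-up of the collagen counts separated the groups where their total did not. Fibrillar genes held 65.5%, 74.4% and 66.5% of the collagen counts in WT and 50.5%, 49.4% and 63.0% in KO replicates 1, 2 and 3, a mean of 68.8% ± 4.91 against 54.3% ± 7.56 (SD, n = 3 each). Every KO lesion lay below every WT lesion, KO replicate 3 included. Beaded filament (type VI) genes held 17.0%, 12.1% and 21.4% in WT and 37.9%, 35.6% and 21.0% in KO lesions, a mean of 16.8% ± 4.66 against 31.5% ± 9.15 (SD, n = 3 each). KO replicates 1 and 2 lay above the WT range and KO replicate 3 within it. FACIT genes held 6.39%, 3.27% and 2.86% in WT and 1.44%, 1.85% and 2.67% in KO lesions, so these groups did not overlap either, although WT replicate 3 and KO replicate 3 were close. Basement membrane genes (type IV) held 6.16% to 7.73% in WT and 7.71% to 9.81% in KO, and the groups overlapped narrowly. Multiplexin genes held 1.78% to 2.22% in WT and 1.93% to 2.42% in KO. The remaining classes each held under 1% in every lesion. Shares within a total are tied to each other, since a lower share of fibrillar counts raises the others, and they were not tested.

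**Figure D2:**
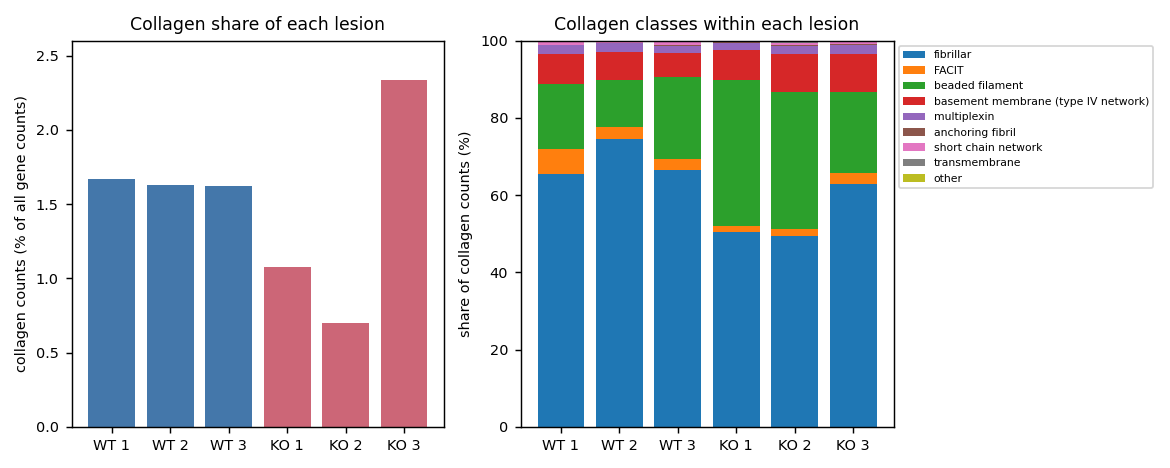
Bars on the left give the collagen share of all gene counts in each lesion, in percent, and stacked bars on the right give the share of each class in the collagen counts of that lesion, in percent. Collagen shares were 1.62% to 1.67% in WT and 0.697% to 2.33% in KO, fibrillar genes held 65.5% to 74.4% of the collagen counts in WT and 49.4% to 63.0% in KO, and beaded filament genes held 12.1% to 21.4% and 21.0% to 37.9%.

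Per length of the gene model, the 4 most abundant collagens of either genotype were Col3a1, Col1a1, Col1a2 and Col6a1, in an order that differed between the genotypes. In WT lesions their mean levels were 473 ± 137, 384 ± 40.9, 281 ± 42.7 and 226 ± 54.7 CPM per kilobase (SD, n = 3). In KO lesions they were 252 ± 191, 278 ± 218, 202 ± 143 and 279 ± 104 CPM per kilobase (SD, n = 3), so the spread between KO lesions was larger than the distances between these genes. When length was taken from the longest coding transcript instead, Col3a1 came first in WT with a mean of 834 CPM per kilobase and Col1a2 second with 652, whereas in KO Col1a2 was at 469 and Col3a1 at 445. The order of Col1a1 and Col1a2 therefore depended on the length used.

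Among the fibrillar genes, 9 of the 10 tested had a lower fitted level in KO lesions and 1 a higher one, with a median log2 fold change of -0.49, and 0 passed the threshold. Col1a1, on chromosome 11 from 94936224 to 94953042, encodes the major chain of type I collagen, the main fibrillar collagen of most connective tissue. It was at 2784, 2247 and 2535 CPM in WT against 1316, 720 and 3446 CPM in KO replicates 1, 2 and 3. KO replicates 1 and 2 were below and KO replicate 3 above all WT lesions, and the log2 fold change was -0.46 (SE 0.57, adjusted p = 0.701). Col1a2, the partner chain, was at 3922, 2895 and 3642 CPM in WT against 1874, 1137 and 4516 CPM in KO (log2 fold change -0.47, SE 0.53, adjusted p = 0.669). Col3a1, whose product forms type III collagen of stretchable tissues such as uterus and vessel wall, lies on chromosome 1 from 45311538 to 45349706. It was at 3599, 6164 and 4158 CPM in WT against 1718, 1097 and 4611 CPM in KO (log2 fold change -0.91, SE 0.58, adjusted p = 0.461). All 3 genes showed the same order of KO lesions, and only WT replicate 2 set Col3a1 apart, as the highest lesion.

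The type V chains, which mix into type I fibrils and limit their diameter, followed the same order. Col5a1 was at 467, 393 and 401 CPM in WT against 242, 136 and 595 CPM in KO. Col5a2 was at 587, 525 and 535 CPM in WT against 238, 150 and 691 CPM in KO. Col5a3 was at 73.8, 94.9 and 74.4 CPM in WT against 26.5, 19.1 and 124 CPM in KO, the widest spread of the type V chains. Their log2 fold changes were -0.37 (SE 0.53), -0.61 (SE 0.56) and -0.52 (SE 0.71), with adjusted p from 0.604 to 0.74, and in each of them KO replicate 3 was the highest of all 6 lesions.

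The type XI chains are the cartilage counterparts of type V. Col11a1 was at 37.1, 22.1 and 37.3 CPM in WT against 16.7, 10.4 and 64.2 CPM in KO, with a log2 fold change of -0.08 (SE 0.69). Col11a2, on chromosome 17 from 34039437 to 34066685, was much scarcer, at 0.598, 1.08 and 0.470 CPM in WT against 0.281, 0.0397 and 0.292 CPM in KO. Its groups did not overlap, and KO replicate 3 was on the side of the other KO lesions. Its log2 fold change was -1.79 (SE 0.73, unadjusted p = 0.05002 and adjusted p = 0.340 by edgeR), just outside the threshold. Col24a1 and Col27a1, minor fibrillar chains, had log2 fold changes of -0.79 (SE 0.54) and 0.20 (SE 0.34), at 4.53 to 22.3 CPM and 2.31 to 4.54 CPM. Col2a1, the main collagen of cartilage, was at 2 to 12 counts per library and did not pass the filter on low counts.

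**Figure D3:**
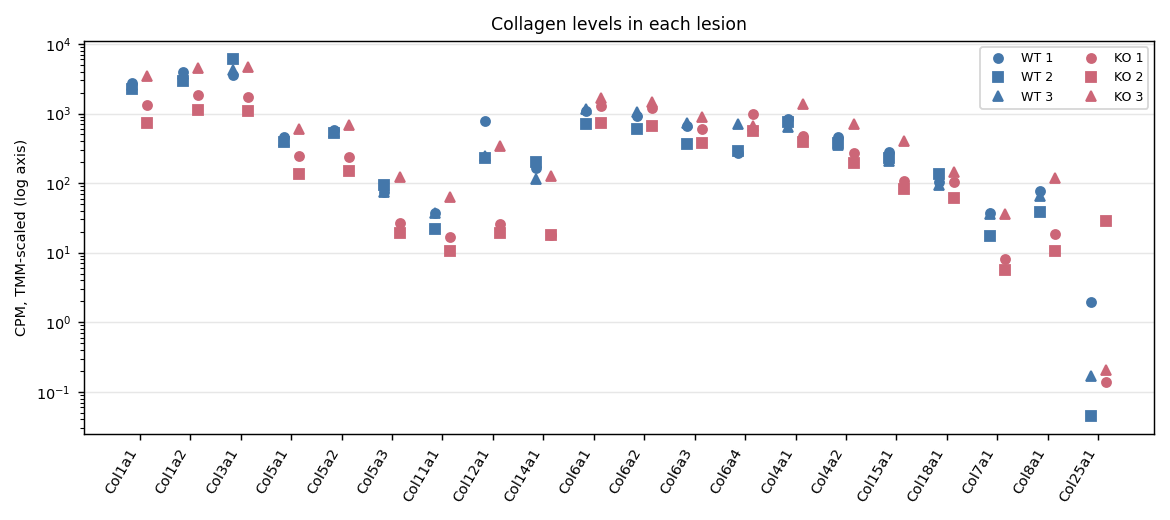
Level in CPM, on a log axis, of 20 collagen genes along the horizontal axis in each lesion, with WT lesions in blue, KO lesions in red and the marker shape standing for the replicate number. For Col1a1, Col1a2 and the type V chains KO replicates 1 and 2 lay below and KO replicate 3 above the WT values, whereas the type VI chains overlapped between the groups and Col25a1 was high in KO replicate 2.

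FACIT genes had the lowest median of the larger classes. All 6 FACIT genes tested had negative log2 fold changes, from -1.77 to -0.17 with a median of -1.49. Of these genes 1 passed the threshold, where 5.85% of all genes tested were lower past it. Col22a1, a chain found at tissue junctions such as that of muscle and tendon, lies on chromosome 15 from 71795795 to 72034227. It was at 1.49, 0.585 and 0.555 CPM in WT against 0.298, 0.159 and 0.313 CPM in KO. Every KO lesion lay below every WT lesion, at most at 1.49 CPM. The log2 fold change was -1.77 (SE 0.55, unadjusted p = 0.0187, adjusted p = 0.328), and the call was lost without KO replicate 2, without WT replicate 1 and with the filter of 10 counts in every library. An antisense gene overlaps exons of Col22a1 in the annotation, and the strand setting of the counting is not given in the sources used here, so reads of that gene may be included.

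Col12a1 and Col14a1, which coat type I fibrils and mark mechanically loaded stroma, had wide ranges among KO lesions. Col12a1 was at 783, 233 and 243 CPM in WT against 25.7, 19.0 and 343 CPM in KO. KO replicate 2 was 18.0 times below KO replicate 3, KO replicate 3 lay inside the WT range, and the log2 fold change was -1.70 (SE 1.23, adjusted p = 0.512). Col14a1 was at 164, 198 and 116 CPM in WT against 17.8, 17.7 and 126 CPM in KO, with a log2 fold change of -1.57 (SE 0.84, adjusted p = 0.402). Again KO replicate 3 was inside the WT range and the other KO lesions far below it. Col16a1, another FACIT gene, was at 167, 110 and 128 CPM in WT against 110, 83.1 and 126 CPM in KO, with a log2 fold change of -0.34 (SE 0.23). Col20a1 was at 4.18, 1.08 and 2.46 CPM in WT against 0.561, 0.795 and 1.52 CPM in KO, with a log2 fold change of -1.42 (SE 0.62, adjusted p = 0.351). Col9a3 was under 1 CPM in all lesions and had a log2 fold change of -0.17 (SE 0.76). The other type IX chains and Col19a1 did not pass the filter on low counts. Col9a1 had 0 counts in all 6 libraries (a count of 0 allows up to 3 counts per library by counting error alone, and more where both reads of a pair were counted). Col19a1 had 44 counts in WT replicate 1 and 0 to 4 elsewhere, and Col9a2 had 66 counts in KO replicate 2 and 2 to 6 elsewhere.

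KO replicates 1 and 2 both lay below every WT lesion for 8 of 10 fibrillar, 5 of 6 FACIT, 2 of 6 type IV and 0 of 6 type VI genes. Over all genes tested, 22.4% showed this order. Type VI collagen anchors cells and basement membranes to the surrounding matrix. Of its 6 genes, 5 had positive log2 fold changes, the median was 0.29, and 0 passed the threshold. Col6a1 was at 1099, 714 and 1154 CPM in WT against 1275, 739 and 1646 CPM in KO (log2 fold change 0.30, SE 0.36, adjusted p = 0.687). Col6a2 was at 935, 602 and 1041 CPM in WT against 1198, 668 and 1456 CPM in KO (log2 fold change 0.37, SE 0.36). Col6a3, the third classical chain, was at 655, 369 and 732 CPM in WT against 590, 383 and 893 CPM in KO (log2 fold change 0.09, SE 0.40). In these chains WT replicate 2 was the lowest lesion, and no KO lesion lay below it. Col6a4 was at 274, 286 and 705 CPM in WT against 992, 552 and 666 CPM in KO. Its log2 fold change of 0.81 (SE 0.45, adjusted p = 0.417) was the highest of the class, and without WT replicate 3 it was 1.37 and passed the threshold, where 2.23% of all genes were higher past it. Col6a6 had a log2 fold change of 0.28 (SE 0.38). Col6a5 was at 1.92, 20.7 and 8.33 CPM in WT against 2.20 to 6.25 CPM in KO, with a log2 fold change of -1.29 (SE 0.85). These 3 genes lie in a row on chromosome 9 on the same strand, with 27.9 kb between Col6a6 and Col6a5 and 28.8 kb between Col6a5 and Col6a4.

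The classical type IV chains, found in every basement membrane, are Col4a1 and Col4a2. Col4a1 was at 826, 757 and 632 CPM in WT against 482, 384 and 1385 CPM in KO. Col4a2 was at 456, 381 and 356 CPM in WT against 270, 195 and 708 CPM in KO. In both, KO replicates 1 and 2 were below and KO replicate 3 above all WT lesions, and their log2 fold changes were 0.02 (SE 0.51) and -0.02 (SE 0.49). The other type IV chains, which are restricted to fewer tissues such as kidney and smooth muscle, did not follow that order. Col4a3 was at 6.02, 12.3 and 14.4 CPM in WT against 15.5, 9.26 and 20.2 CPM in KO (log2 fold change 0.46, SE 0.42). Col4a4 was at 13.4, 12.4 and 18.8 CPM in WT against 20.1, 15.1 and 27.4 CPM in KO (log2 fold change 0.49, SE 0.28). In both, KO replicate 3 was the highest lesion and the groups overlapped. Col4a5 was at 42.1, 35.1 and 30.0 CPM in WT against 34.0, 35.8 and 38.4 CPM in KO, a log2 fold change of 0.01 (SE 0.16), the smallest error of all members. Col4a6 was at 11.1, 12.1 and 5.47 CPM in WT against 9.12, 9.22 and 10.9 CPM in KO (log2 fold change 0.03, SE 0.32). These chains lie head to head in pairs on opposite strands. In the annotation the gene models of Col4a1 and Col4a2 overlap by 22 bases on chromosome 8, the starts of Col4a4 and Col4a3 are 71 bases apart on chromosome 1, and those of Col4a6 and Col4a5 are 1308 bases apart on chromosome X.

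The multiplexins Col15a1 and Col18a1 belong to the zone around basement membranes, and the end fragment of the Col18a1 product is endostatin. Col15a1 was at 284, 232 and 210 CPM in WT against 105, 83.0 and 399 CPM in KO (log2 fold change -0.30, SE 0.61), the same order of KO lesions as the fibrillar genes. Col18a1 was at 103, 137 and 94.9 CPM in WT against 103, 60.8 and 142 CPM in KO (log2 fold change -0.13, SE 0.33). Col7a1, which makes the anchoring fibrils that tie epithelium to stroma, was at 37.6, 17.4 and 36.3 CPM in WT against 8.23, 5.64 and 36.3 CPM in KO (log2 fold change -0.86, SE 0.75).

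Of the short chain network collagens, Col8a1 was at 76.6, 37.9 and 64.6 CPM in WT against 18.4, 10.5 and 117 CPM in KO (log2 fold change -0.29, SE 0.91). Its partner Col8a2, which together with it forms sheets under endothelium, was at 58.4, 27.8 and 31.5 CPM in WT against 18.5, 23.0 and 32.9 CPM in KO (log2 fold change -0.66, SE 0.36). Col10a1, a marker of hypertrophic cartilage, was at 71.4 CPM in WT replicate 3, 24.1 CPM in KO replicate 3 and 2.15 to 3.84 CPM in the other lesions. Of the 5 cartilage markers listed, Acan, Matn1 and Matn3 were under 1 CPM in all lesions and Comp was at 1.09 to 3.97 CPM. Sox9, which epithelial cells also express, was at 41.9, 13.7 and 62.9 CPM in WT against 102, 100.3 and 35.0 CPM in KO. The part of cartilage in the level of Col10a1 was not tested, and Col10a1 shares exons with Nt5dc1 on the opposite strand. In all, 10 members overlap exons of a gene on the opposite strand in the annotation, 4 of them a protein-coding one (Col4a1, Col4a2, Col9a3 and Col10a1).

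The transmembrane collagens and the unclassified chains were scarce, and some of their values came from 1 lesion. Col17a1, a hemidesmosome component of stratified epithelium, was at 1.96, 11.3 and 7.13 CPM in WT against 1.33, 1.31 and 5.0 CPM in KO (log2 fold change -1.42, SE 0.82). Col23a1 was at 16.1, 3.92 and 8.97 CPM in WT against 2.63, 5.92 and 4.36 CPM in KO (log2 fold change -1.17, SE 0.57). Col13a1 stayed under 1 CPM in all lesions and had a log2 fold change of -0.66 (SE 0.70). Col25a1 was at 28.3 CPM in KO replicate 2 and at 0.0450 to 1.96 CPM in the other lesions, so its log2 fold change of 3.71 (SE 2.33, adjusted p = 0.453) came from 1 lesion and was -2.05 without it. Col26a1 showed the same lesion, at 0.897, 0.135 and 0.256 CPM in WT against 0.105, 4.05 and 0.333 CPM in KO, and its log2 fold change of 1.79 (SE 1.42) was -0.97 without it. Ovgp1, the gene of an oviductal glycoprotein that was chosen after its values were seen, was at 4104 CPM in KO replicate 2 and 2.61 to 50.5 CPM in the other lesions, and its part in the values of Col25a1, Col26a1 and Col9a2 was not tested. Col28a1 was at 12.6, 12.9 and 7.39 CPM in WT against 1.70, 2.5 and 17.5 CPM in KO (log2 fold change -0.60, SE 0.90).

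**Figure D4:**
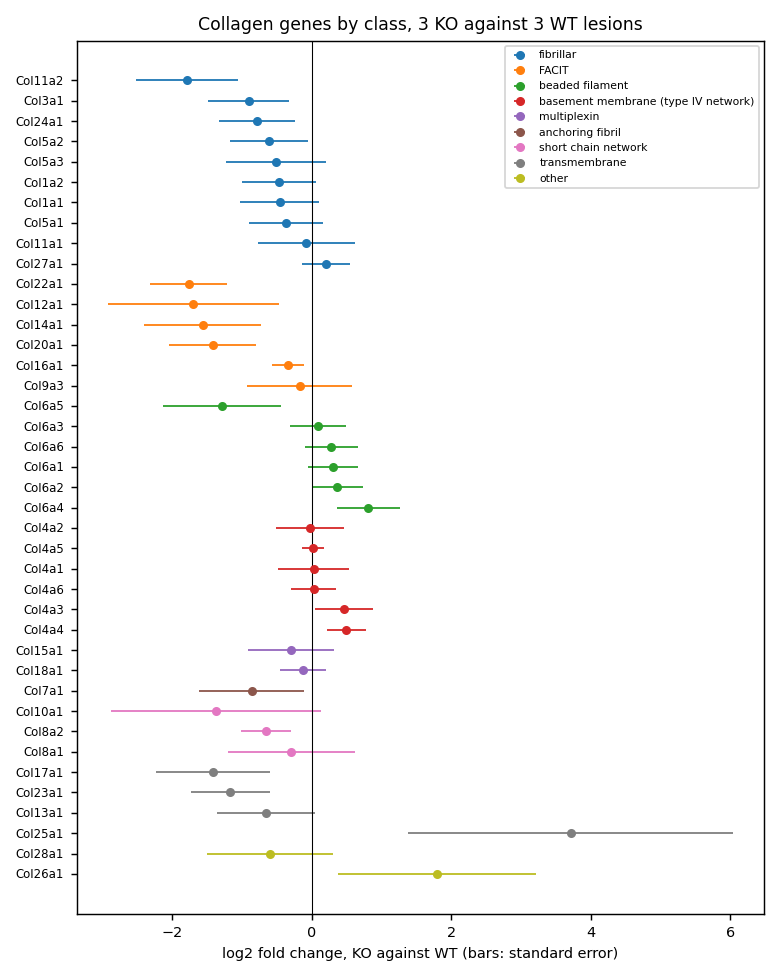
Log2 fold change of KO against WT for the 40 tested collagen genes, in edgeR's fit, with the standard error as a horizontal bar and the class as colour. All FACIT genes and 9 of 10 fibrillar genes lie to the left of 0, type VI and type IV genes lie at or to the right of 0 apart from Col6a5 and Col4a2, and Col25a1 at 3.71 has the widest bar.

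Of the lesions left out in turn, KO replicate 3 moved these counts most. Without it, 17 of the 40 members were lower past the threshold and 0 higher, which is 42.5% of the members where 8.66% of all genes were lower past it and 5.36% higher. The median log2 fold change of the members was then -1.16, and 0 genes of the whole table had an adjusted p under 0.05 by edgeR. The 17 were 7 fibrillar genes, 4 FACIT genes, 2 transmembrane genes and 1 each of the anchoring fibril, multiplexin, short chain and unclassified genes, and none of type IV or type VI. Col14a1 had the lowest p of them, with a log2 fold change of -3.16 (SE 0.28, unadjusted p = 0.000119, adjusted p = 0.112 by edgeR). Col5a2 was at -1.50 (SE 0.25) and Col1a1 at -1.31 (SE 0.34) in that fit. Col6a1, the most abundant type VI chain, was at 0.03 (SE 0.35) and Col4a5 at -0.03 (SE 0.18), while Col4a1 was at -0.77 (SE 0.21), under the limit on fold change. With any other lesion left out, 0 to 3 members were lower past the threshold. The number was 2 without WT replicate 1 (5.99% of all genes), 3 without WT replicate 2 (5.86%), 1 without WT replicate 3 (6.24%), 1 with KO replicate 1 left out (2.9%) and 0 with KO replicate 2 left out (3.48%). The weights that limma voom gave the libraries were lowest for WT replicate 2 (0.334) and KO replicate 3 (0.411), and in that fit 18 members were lower past the threshold, 45.0% of the members beside 8.15% of all genes, and 0 were higher, beside 4.49%. KO replicate 3 carries the same label as the other KO lesions, and its Dnmt3a level of 36.2 CPM was below that of every WT lesion.

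**Figure D5:**
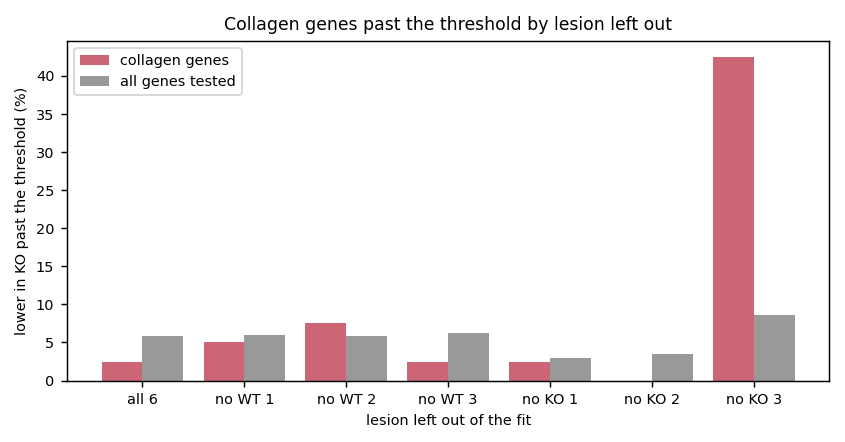
Percent of genes lower in KO past the threshold, for the tested collagen genes (red bars) and all genes tested (grey bars), in the fit of all 6 lesions and in each fit with 1 lesion left out. The collagen bar is at 42.5% without KO replicate 3, beside 8.66% of all genes, and at 7.5% or less in the other fits.

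For most chains that join in the same molecule or fibril, the ratio varied less between lesions than the levels. The level of Col1a1 differed by 4.79 times between KO lesions, whereas the ratio of Col1a2 to Col1a1 counts per kilobase was 0.744, 0.680 and 0.759 in WT and 0.752, 0.834 and 0.692 in KO. The ratio of Col4a2 to Col4a1 was 0.609 ± 0.0356 in WT and 0.594 ± 0.0332 in KO (SD, n = 3 each), and that of Col6a2 to Col6a1 was 0.455 ± 0.0167 and 0.478 ± 0.0148 (SD, n = 3 each). Col5a2 relative to Col1a1 was 0.144, 0.160 and 0.144 in WT and 0.124, 0.143 and 0.137 in KO, and its groups did not overlap. Its exact two-sided permutation p was 0.1, the smallest that 3 lesions against 3 allow, and 0.66 after adjustment over the 11 ratios computed. Col3a1 relative to Col1a1 was 0.865, 1.83 and 1.10 in WT and 0.873, 1.02 and 0.895 in KO, with WT replicate 2 apart (exact permutation p = 0.4). Col6a3 to Col6a1 was 0.213 ± 0.0220 in WT and 0.186 ± 0.0149 in KO (SD, n = 3 each, exact permutation p = 0.3). Col4a4 relative to Col4a3 was 2.09, 0.948 and 1.22 in WT and 1.22, 1.54 and 1.28 in KO. Col4a6 relative to Col4a5 was 0.222, 0.290 and 0.153 in WT and 0.226, 0.217 and 0.239 in KO, a wider relative range than that of the Col4a5 level. The ratio of Col8a2 to Col8a1 was less even, at 1.33, 1.28 and 0.852 in WT and 1.76, 3.83 and 0.489 in KO. That of Col11a2 to Col11a1 was less even still, at 0.0299, 0.0908 and 0.0234 in WT and 0.0312, 0.00708 and 0.00843 in KO. No ratio had an adjusted p under 0.66. A ratio of levels depends on the gene length used, and with coding transcripts the mean of Col1a2 to Col1a1 becomes 1.53 in WT and 1.59 in KO.

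The sequences before the start sites were compared because Dnmt3a methylates cytosine in CG pairs, although methylation was not measured here. RefSeq start regions on GRCm38.p6, 250 bases before to 50 bases after the start, were found for 35 of the 44 members, in 38 windows. They held a median of 11.5 CG pairs, beside 7 over 32851 windows of all genes. The letters TATAAA, on either strand, were in 5 of the 38 windows and in 13.6% of all, and CCAAT, on either strand, in 13 of the 38 and in 37.4% of all. The following stretches are the 120 bases before the start of 3 fibrillar genes for which KO replicates 1 and 2 lay below every WT lesion, and of 1 type VI and 1 transmembrane gene for which they did not. Capitals mark each CG pair.
Col3a1 (chr1:45311418-45311537, plus strand): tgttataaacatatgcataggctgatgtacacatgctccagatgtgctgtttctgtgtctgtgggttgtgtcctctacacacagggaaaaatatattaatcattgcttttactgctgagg
Col5a1 (chr2:27886305-27886424, plus strand): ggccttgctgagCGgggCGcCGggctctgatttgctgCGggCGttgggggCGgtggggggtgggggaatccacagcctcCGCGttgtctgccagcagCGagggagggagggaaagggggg
Col5a3 (chr9:20815068-20815187, minus strand): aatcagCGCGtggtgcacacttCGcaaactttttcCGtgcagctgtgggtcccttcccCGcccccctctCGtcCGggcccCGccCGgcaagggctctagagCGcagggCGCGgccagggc
Col6a3 (chr1:90843972-90844091, minus strand): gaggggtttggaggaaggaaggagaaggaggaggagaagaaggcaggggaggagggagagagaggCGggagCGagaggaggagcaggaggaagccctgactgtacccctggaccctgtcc
Col25a1 (chr3:130180725-130180844, plus strand): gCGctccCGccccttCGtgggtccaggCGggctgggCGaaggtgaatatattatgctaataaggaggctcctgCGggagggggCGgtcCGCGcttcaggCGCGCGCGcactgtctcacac
Col3a1 held 0 CG pairs in this stretch and the letters TATAAA, whereas Col5a1 held 9 and Col5a3 held 12 CG pairs. Col6a3 held 2 and Col25a1 held 13. These stretches are examples, and a link between CG pairs before the start and the levels in the lesions was not tested.

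Genes that make, process or bind collagen were listed separately. Of 22 biosynthesis genes tested, 1 was lower past the threshold and 0 higher, with a median log2 fold change of -0.11, where 5.85% of all genes tested were lower and 3.1% higher. This was Tmem38b, a cation channel of the endoplasmic reticulum needed for collagen modification, at 92.6, 58.0 and 63.5 CPM in WT against 27.6, 26.9 and 26.2 CPM in KO. All KO lesions lay far below all WT lesions and close to each other, KO replicate 3 included, with a log2 fold change of -1.41 (SE 0.20, adjusted p = 0.321). Creb3l1, a transcription factor that drives procollagen genes, was at 92.5, 98.3 and 101 CPM in WT against 49.6, 42.9 and 68.5 CPM in KO (log2 fold change -0.86, SE 0.19, unadjusted p = 0.00432, adjusted p = 0.321 by edgeR), under the limit on fold change. P4ha1, a subunit of prolyl hydroxylase, also had groups that did not overlap (log2 fold change -0.80, SE 0.27). Mia3, which helps to load collagen into transport vesicles, was on the other side, at 163, 129 and 148 CPM in WT against 238, 222 and 163 CPM in KO (log2 fold change 0.50, SE 0.19), with KO replicate 3 just above the highest WT lesion. Ppib, the prolyl isomerase cyclophilin B of the collagen folding machinery, also had all KO lesions above all WT lesions, at 219, 236 and 242 CPM in WT against 312, 337 and 253 CPM in KO (log2 fold change 0.37, SE 0.16). Serpinh1, the collagen chaperone HSP47, was at 581, 575 and 613 CPM in WT against 486, 328 and 836 CPM in KO, the order of the fibrillar genes.

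None of the 7 tested genes of propeptide removal (median log2 fold change -0.32) and none of the 5 cross-linking enzymes (median -0.37) passed the threshold. Lox, the main cross-linking enzyme, was at 426, 360 and 390 CPM in WT against 224, 159 and 528 CPM in KO, again with KO replicate 3 at the top. Of 8 tested proteoglycans that bind fibrils (median -0.56), Fmod, which shapes fibril growth, was lower past the threshold. Over all genes tested, 5.85% were lower past it. Fmod was at 23.4, 18.4 and 22.3 CPM in WT against 7.19, 6.08 and 16.3 CPM in KO (log2 fold change -1.11, SE 0.40, adjusted p = 0.328). Of 9 tested collagen receptors (median -0.39), Itga2, the alpha chain of a collagen-binding integrin, was lower past the threshold, at 71.2, 135 and 179 CPM in WT against 32.1, 29.7 and 70.4 CPM in KO (log2 fold change -1.55, SE 0.48, adjusted p = 0.325). The groups of Itga2 did not overlap, but WT replicate 1 and KO replicate 3 were nearly level. Over all genes tested, all KO lesions lay below all WT lesions for 8.74%.

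Marker lists of other cells moved with some collagens, and their part in these values was not tested. Endothelial markers summed to 559 to 679 CPM in WT against 355, 259 and 707 CPM in KO replicates 1, 2 and 3, the order of Col4a1, Col4a2 and Col15a1. Smooth muscle markers summed to 1119 to 4957 CPM in WT against 2303 to 4041 CPM in KO, and 7 of its 8 genes had positive log2 fold changes. The exception, Des, was at 2675, 106 and 1357 CPM in WT against 371, 195 and 362 CPM in KO (log2 fold change -2.16, SE 1.02). It was highest in WT replicates 1 and 3, the lesions with high skeletal muscle markers, and made up much of the WT sums there. Over all genes tested, 5.85% were lower past the threshold and 3.1% higher. Of the smooth muscle genes, Actg2 was at 109, 62.3 and 107 CPM in WT against 318, 169 and 231 CPM in KO (log2 fold change 1.37, SE 0.32, adjusted p = 0.321), and Cnn1 was also higher past the threshold (log2 fold change 1.26, SE 0.36). Of the fibroblast markers, Pi16 was lower past it (log2 fold change -2.45, SE 0.89), and 9 of 10 had negative log2 fold changes. The epithelial gene Cldn4 (log2 fold change -1.07, SE 0.40) and the Schwann cell gene Sox10 (-1.80, SE 0.61) were lower past it, and Ngfr (1.07, SE 0.28), also of the Schwann cell list, was higher. Adipocyte markers summed to 729 to 2269 CPM in WT against 391 to 3280 CPM in KO, mesothelial markers to 65.8 to 282 and 45.8 to 297 CPM, Schwann cell markers to 61.3 to 104 and 109 to 195 CPM, cartilage markers to 15.6 to 64.8 and 37.2 to 105 CPM, and neutrophil markers to 15741 to 19760 and 15858 to 33653 CPM. Most of the last sum was Ltf, which uterine epithelium expresses too, whereas the neutrophil gene S100a9 was at 5263 CPM in WT replicate 2 and 2.38 to 240 CPM in the other lesions.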

How the data were processed

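Whole-lesion RNA from 3 WT and 3 KO ectopic lesions was sequenced as TruSeq stranded mRNA libraries, 1 per lesion, and samples were grouped by the genotype in their labels. The authors deposited raw gene counts, which are whole numbers and not normalized. By the study's methods, reads were trimmed, mapped to GRCm38 and counted on the Galaxy platform. The submitters' processing notes list Trimmomatic, featureCounts, DESeq2 and GRCm39. The genome build of the counts is therefore unsettled, and the aligner, annotation release and strand setting are not given in the sources used here. Symbols, lengths and gene positions were taken from GENCODE M21 on GRCm38, where 51948 of the 56884 identifiers matched after their version was removed and 35 with it, so positions can differ from the gene models counted. Genes without a symbol held 3.04% to 3.56% of the counts. In each library 89.2% to 90.6% of the counts between 1 and 20 were even, as when both reads of a pair are counted, so counting error is larger than the counts imply.

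The fit used edgeR 4.0.16 under R 4.3.3 (filterByExpr, TMM factors of 0.962 to 1.05, quasi-likelihood test with genotype as the only term, Benjamini-Hochberg adjustment over all 18177 genes kept, biological coefficient of variation 44.2%). SE is the size of the log2 fold change over the square root of F. Every printed adjusted p is from this fit unless another tool is named. CPM used the TMM factors and no prior count. CPM per kilobase divides by the union of exons of a gene. Ratios of chains were compared by exact two-sided permutation tests. The steps were tested on simulated data. Alternatives were DESeq2's or upper quartile scaling, other filters, DESeq2 1.42.0, limma 3.58.1 voom with sample quality weights, a replicate block and each lesion left out. Halved counts and lengths of coding transcripts were added after seeing the data.

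Members and lists were chosen with earlier results of these data known: the 44 collagens in 9 classes, 5 lists of genes that make, process or bind collagen, and 10 lists of cell type markers. All members are accounted for. Named with every lesion's value are members past the threshold or with groups that do not overlap, the most abundant members of each class, chains of the ratios, and genes of the lists past the threshold (at most 5 per list). As exceptions, marker genes past it are given by log2 fold changes, by sums or by 1 example. Start sequences are RefSeq's on GRCm38.p6. Features of the collagen proteins were not analysed here.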

Additional observations from a re-analysis of the deposited data

How the results depend on the processing

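The number of collagen genes lower past the threshold was 1 with all lesions and 0 to 17 with each lesion left out in turn, and the number higher was 0 to 1. It was 0 with at least 10 counts in every library (34 members tested, 5.17% of all genes lower), 6 with DESeq2 (6.13% of all genes), 18 with limma voom (8.15%) and 2 with counts halved (5.68%, chosen after seeing the data), and 1 member was higher with DESeq2, where 2.81% of all genes were. The DESeq2 fit covered 43 members. Its higher member, Col9a2, rests on the 66 counts of KO replicate 2, and its lower member Col19a1 mostly on the 44 counts of WT replicate 1. No member had an adjusted p under 0.05 in any fit run. The median log2 fold change of the members ran from -1.16 to -0.15 with lesions left out and was -0.99 with limma voom. Dnmt3a had a log2 fold change of -0.58 with an adjusted p of 0.0444 by DESeq2, and its adjusted p was over 0.05 in every other fit.

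Replicate numbers are shared between the groups, but same-numbered lesions did not deviate together (correlations of 0.032, -0.152 and -0.201). The main fit therefore used no pairing. With 3 lesions per group this check cannot settle whether same-numbered lesions shared a step. With the replicate block 1 member was lower past the threshold, as without it, where 3.15% of all genes were, and the median was -0.63.

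The direction turned in some fits. Col4a1 was at -0.55 with limma voom and -0.23 with the block, Col4a2 at 0.0639 and Col11a1 at 0.00691 with upper quartile scaling, and Col4a5 at -0.00203 with DESeq2's size factors and -0.0202 with limma voom. Col6a1, Col6a3 and Col9a3 were at -0.0485, -0.34 and 0.0105 with limma voom. The cause was not tested. With lesions left out, log2 fold changes that changed sign ran from -3.12 to 1.58 for Col10a1, -1.24 to 0.33 for Col11a1, -1.36 to 0.064 for Col15a1, -0.45 to 0.14 for Col18a1, -2.05 to 6.42 for Col25a1, -0.97 to 2.91 for Col26a1, -0.0183 to 0.41 for Col27a1, -0.77 to 0.34 for Col4a1, -0.77 to 0.30 for Col4a2, -0.12 to 0.15 for Col4a5, -0.27 to 0.23 for Col4a6, -0.27 to 0.34 for Col6a3, -2.05 to 0.19 for Col8a1 and -0.71 to 0.57 for Col9a3. Upper quartile scaling moved the median of all genes from 0.01 to 0.11 and that of the members to -0.27. Collagens under 1 CPM rest on few counts, which limits the precision of their differences.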
